A study of Mus musculus with 141 samples.

Results

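The genes described here are 5 G protein-coupled receptors for lipid mediators, read from all 47 groups of libraries of a time course of mouse CD4 T cells turning into Th17 cells. They are 5 of 46517 genes in the table: Ltb4r1, the high-affinity receptor for leukotriene B4 (often called BLT1), Cysltr1, a receptor for the cysteinyl leukotrienes, Gpr174, a receptor for lysophosphatidylserine, and Ptger2 and Ptger4, the EP2 and EP4 receptors for prostaglandin E2. Ltb4r1 and Cysltr1 were chosen by their difference between IL6 and TGFb and no cytokines at 72 h, and Gpr174 by the same difference at 2 h. The values behind the choice of Ptger2 and Ptger4 are not given in the sources used here. All 5 passed the filter on low values in both sets of courses.

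Lipid mediators are made from membrane lipids when cells are activated or damaged, act over short distances and are quickly removed. Leukotriene B4 draws leukocytes towards inflamed tissue through its receptor, and cysteinyl leukotrienes act on smooth muscle, vessels and leukocytes. Prostaglandin E2 acts in T cells mainly through EP2 and EP4, which couple to Gs and raise cyclic AMP, and Gpr174 also raises cyclic AMP and is known as a restraint on T cells.

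RNA was sequenced from sorted naive CD4+CD25-CD44lo T cells from the spleen and lymph nodes of C57BL/6 mice, whose ages are not given. The 0 h cells were unstimulated, and the cells of every other group were cultured on plate-bound antibodies to CD3 and CD28 and taken at 0.5 h, 1 h and 2 h, at 4 h, 6 h and 12 h, and at 24 h, 48 h and 72 h. In courses 1 to 3 the stimulated cells received either no polarizing cytokines, the condition called Th0, or IL6 and TGFb. In courses 4 to 6 they received IL6 and TGFb with IL1b, with IL21, or with both, and these cultures are called cocktails below. No mice with altered alleles were used, each of the 47 groups has 3 libraries called biological replicates, and nothing in the labels says which mice or cultures they share, so p-values measure the spread between these libraries. A library held 16 to 47.1 Mreads (median 25.4), so 1 read is well below 1 CPM, the unit of reads per Mread assigned to genes. Levels are CPM scaled between libraries by the TMM factors of edgeR.

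Summed T cell markers (7 genes) stood at 2440 to 4810 CPM in every 0 h and 72 h library, with 0 genes at 0. Summed Th17 markers (Il17a, Il17f, Il23r and Maf) stood at 1390 to 3390 CPM in the 72 h cytokine cultures and at 17.2 to 23.1 CPM in the 72 h no-cytokine cultures. Of 10 myeloid markers, 2 were under 1 CPM in every 0 h library. The sum of the 10 was 25.5 to 48.6 CPM at 0 h and 0.851 to 2.54 CPM in the 72 h cytokine cultures. In bulk RNA, fewer cells of a type and less RNA per cell cannot be told apart. Some libraries stood apart from their groups. The 0 h library of course 2 was the highest of its group for Ltb4r1 and Cysltr1, and the no-cytokine 72 h library of course 1 was the highest of its group for Gpr174, Ptger2 and Ptger4. The no-cytokine 48 h library of course 1 was also the highest for Gpr174 (161 beside 57.9 and 80.4 CPM), Ptger2 (40.2 beside 23.6 and 20.5 CPM) and Ptger4. For Cysltr1 the 0 h library of course 6 read 0.906 CPM beside 0 and 0.0711 CPM. Tests of the receptors that rest on the 0 h library of course 2 or the no-cytokine 72 h library of course 1 are also given without them. No fit left out the 48 h library of course 1 or the 0 h library of course 6 alone. Values of other named genes include every library.

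The sequences just before the annotated starts are shown for 3 of the genes: Ptger2 and Ptger4, which both rose after stimulation, and Ltb4r1, which rose late and with cytokines. All 3 differ in G or C content, while Ptger2 and Ltb4r1 hold equally many CG pairs. A link between sequence and level was not tested. Each is 250 bases, 5′ to 3′ on the gene's strand, from RefSeq on GRCm38.p6, with CG pairs in capitals. Ltb4r1 is at chr14:55765712-55765961 on the plus strand, Ptger2 at chr14:44987861-44988110 on the plus strand and Ptger4 at chr15:5244188-5244437 on the minus strand.
Ltb4r1: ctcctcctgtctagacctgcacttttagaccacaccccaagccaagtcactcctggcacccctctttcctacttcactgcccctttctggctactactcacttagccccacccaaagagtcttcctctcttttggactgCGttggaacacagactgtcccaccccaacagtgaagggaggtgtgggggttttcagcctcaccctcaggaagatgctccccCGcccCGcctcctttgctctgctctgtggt
Ptger2: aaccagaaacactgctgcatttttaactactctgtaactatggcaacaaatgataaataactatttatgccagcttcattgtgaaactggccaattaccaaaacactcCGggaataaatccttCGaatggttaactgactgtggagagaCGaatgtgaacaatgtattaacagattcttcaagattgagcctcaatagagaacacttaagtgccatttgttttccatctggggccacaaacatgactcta
Ptger4: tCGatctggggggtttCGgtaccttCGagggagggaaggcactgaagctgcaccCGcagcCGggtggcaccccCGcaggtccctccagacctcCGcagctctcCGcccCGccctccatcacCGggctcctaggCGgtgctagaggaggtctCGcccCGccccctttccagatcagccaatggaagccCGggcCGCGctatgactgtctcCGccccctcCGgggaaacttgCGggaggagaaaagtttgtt

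Ptger4 had 19 CG pairs and 66.8% G or C, Ptger2 had 3 and 38%, and Ltb4r1 had 3 and 56.8%, beside medians of 6 pairs and 52.4% over 32851 promoters. Fewer CG pairs than in Ptger4 were present in 80.3% of all promoters, and fewer than in Ptger2 or Ltb4r1 in 29%. Entries were present for 4 of the 5 genes, Cysltr1 being the other. Searched on both strands from 250 bases before to 50 after the start, the 4 windows held 0 matches to TTCNNNGAA (a STAT motif), AGGTCA (a nuclear receptor half-site), TGANTCA (AP-1), TGACGTCA (the cyclic AMP response element) and GCGTG (the core of the AhR motif). These letters were present in 8.3%, 16.3%, 7.81%, 1.79% and 32.4% of all such windows.

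The leukotriene receptors Ltb4r1 and Cysltr1 were near 0 for 12 h and then climbed in every culture with IL6 and TGFb. For Ltb4r1, the 3 libraries with IL6 and TGFb read 1.11, 0.685 and 0.792 CPM at 24 h, 13.1, 18.5 and 15.9 CPM at 48 h, and 107, 77 and 70.2 CPM at 72 h. The no-cytokine libraries read 0.234, 0.141 and 0.13 CPM at 72 h. The groups did not overlap from 24 h on and overlapped at every earlier time. For Cysltr1, the libraries with IL6 and TGFb read 4.19, 2.52 and 2.69 CPM at 24 h, 75.8, 44.2 and 59.2 CPM at 48 h, and 237, 186 and 202 CPM at 72 h. Without cytokines they read 0.767, 2.11 and 1.56 CPM at 72 h, again with no overlap from 24 h on. These values are a description, since this contrast led to the choice of both genes. Over all 14695 genes tested, the groups did not overlap for 7.61% at 0.5 h, 19.7% at 1 h, 26% at 2 h, 24.2% at 4 h, 28.2% at 6 h, 32.7% at 12 h, 48.5% at 24 h, 54.9% at 48 h and 43% at 72 h.

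In the cocktail courses, whose libraries did not enter that contrast, both genes rose again. Ltb4r1 read 0.182, 0.213 and 0.453 CPM at 0 h and between 59.1 and 95.2 CPM in the 9 cocktail libraries at 72 h. These 9 come from 3 courses, and the fit counted them as independent. Cocktail libraries of the same course deviated together, which the SE and p of a mean over cocktails leave out. On log2(CPM + 0.5), a scale that understates the change of low genes, the mean of the 3 cocktails was above 0 h by 1.18 ± 0.21 (SE) at 24 h (adjusted p = 6.93e-07) and by 6.53 ± 0.21 at 72 h (adjusted p = 1.9e-38). Cysltr1 read 0, 0.0711 and 0.906 CPM at 0 h and between 126 and 204 CPM in the cocktails at 72 h, which was higher by 2.33 ± 0.22 at 24 h and by 7.84 ± 0.22 at 72 h (adjusted p = 6.96e-42). At 2 h neither passed the test, with differences of -0.08 ± 0.21 for Ltb4r1 and 0.33 ± 0.22 for Cysltr1. For both genes the 4 highest group means were the 4 cytokine cultures at 72 h, which overlapped with their neighbours in that order, from 67.9 to 84.7 CPM for Ltb4r1 and from 157 to 208 CPM for Cysltr1. The 48 h cytokine cultures followed with no overlap, the highest of them at 21.8 and 74.5 CPM.

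Without cytokines these receptors stayed low. Cysltr1 read 0.36, 1.92 and 0.11 CPM at 0 h and 0, 0.258 and 0.105 CPM at 2 h, a log2 difference of -0.82 ± 0.34 that passed the test (adjusted p = 0.0311). Ltb4r1 read 0.0801, 1.44 and 0.0736 CPM at 0 h and 0.11, 0.036 and 0.0856 CPM at 24 h, a difference of -0.58 ± 0.26 (adjusted p = 0.0397). In both cases the course 2 library at 0 h was the high one, and without it the differences were -0.24 (adjusted p = 0.543) and 0 (adjusted p = 0.998), so neither call held. Cysltr1 was higher at 72 h than at 0 h by 0.81 ± 0.34 (adjusted p = 0.0368), but edgeR and DESeq2 on the same libraries gave adjusted p of 0.0849 and 0.302. Without course 3 the difference was 0.33 (adjusted p = 0.565), and without the 0 h library of course 2 it was 1.39 (adjusted p = 0.000382). It was called in 7 of 14 fits. The no-cytokine libraries at 72 h entered the choice of Cysltr1, so this 72 h test is not independent of that choice.

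**Figure D1:**
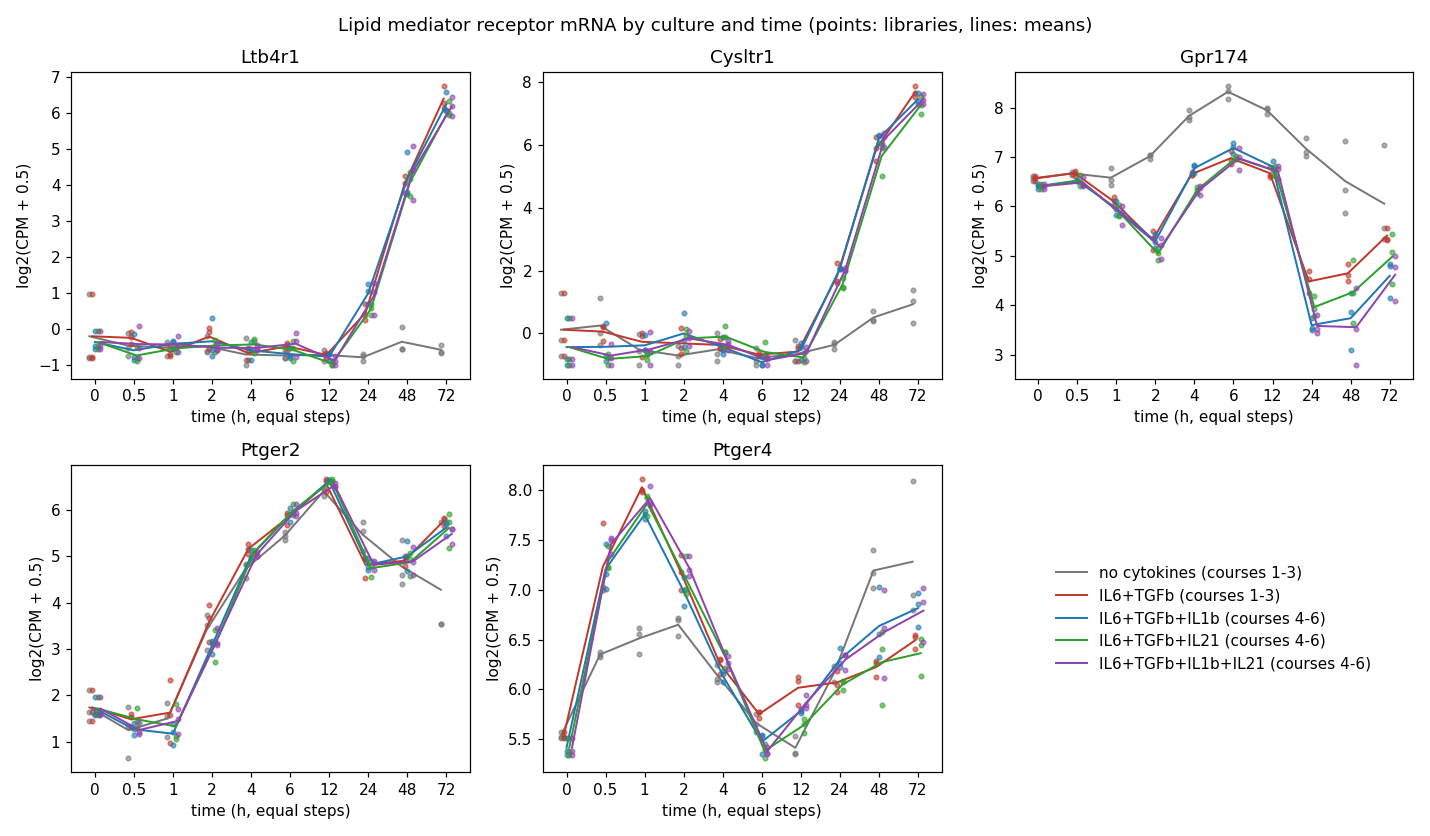
Levels of the 5 receptor mRNAs as log2(CPM + 0.5) against hours of culture in equal steps, with 1 point per library, a line through the means of each culture and the 0 h libraries of its own courses at the left. Ltb4r1 and Cysltr1 leave the floor after 12 h in the 4 cytokine cultures, Gpr174 dips at 2 h and 24 h with cytokines, Ptger2 peaks at 12 h and Ptger4 at 1 h with cytokines.

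Gpr174 followed another course: it was highest 6 h after stimulation without cytokines, and the cocktails fell below 0 h at 2, 24 and 72 h. Without cytokines the mean went from 94.5 CPM at 0 h to 321 ± 29.2 CPM (SD, n = 3) at 6 h, the highest of all 47 groups, and to 145 CPM at 24 h. The 24 h libraries read 129, 167 and 137 CPM against 90.5, 98 and 95 CPM at 0 h, all above, a log2 difference of 0.60 ± 0.25 (adjusted p = 0.0275). Without course 2 or course 3 that difference was 0.52 (adjusted p = 0.174) or 0.64 (adjusted p = 0.12). At 2 h the libraries read 132, 132 and 124 CPM, again all above 0 h, and the difference was 0.45 ± 0.25 (adjusted p = 0.103). It was called in 2 of 13 fits, without course 1 (adjusted p = 0.013) and in a fit of only the compared groups (adjusted p = 0.000129). The no-cytokine libraries at 2 h entered the choice of Gpr174, so this 2 h test is not independent of that choice.

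With IL6 and TGFb, Gpr174 stood at 40.4, 34.3 and 44.8 CPM at 2 h, below the 132, 132 and 124 CPM without cytokines. It came back to 126 ± 12.5 CPM at 6 h, against 321 CPM, and at 24 h read 18.4, 25.2 and 22.5 CPM. The cytokine libraries were below the others with no overlap at every time from 1 to 48 h, which is a description here because the 2 h values chose the gene. At 72 h the groups overlapped: the no-cytokine libraries read 152 (course 1), 47 and 40.2 CPM and those with IL6 and TGFb 40, 39.3 and 47.1 CPM. In the cocktail courses Gpr174 fell from 84.7 CPM at 0 h to 35.8 CPM at 2 h, a log2 change of -1.24 ± 0.19 (adjusted p = 1.96e-08), to 12.8 CPM at 24 h, -2.70 ± 0.19, and to 27.2 CPM at 72 h, -1.68 ± 0.19 (adjusted p = 2e-12). Between these falls the cocktail libraries read 93.3 to 155 CPM at 6 and 12 h, above the 81.4 to 87.4 CPM of their 0 h libraries. The 2 lowest of the 47 group means were 2 cocktails at 24 h, 11.6 and 11.5 CPM, which overlapped.

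At 72 h without cytokines, Gpr174 differed from 0 h by -0.51 ± 0.25 (adjusted p = 0.0655). Without the course 1 library, the difference was -1.11 (adjusted p = 1.61e-06). The same library held 53.3 CPM of Ptger2 beside 11.1 and 11.2 CPM, and 273 CPM of Ptger4 beside 111 and 123 CPM. Its summed myeloid markers were 7.34 CPM beside 1.48 and 1.79 CPM, and its summed mast cell and eosinophil markers (8 genes) 4.9 CPM beside 0.176 and 0.261 CPM, nearly all from Siglecf. The part of these in the result was not tested.

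Ptger2, the EP2 receptor, rose with stimulation whether or not cytokines were present. It read 2.64, 3.84 and 2.24 CPM at 0 h in courses 1 to 3, and without cytokines 7.41, 10.9 and 12.8 CPM at 2 h and 34.3, 52.9 and 46 CPM at 24 h. The log2 changes were 1.67 ± 0.33 at 2 h (adjusted p = 2.43e-05), 3.72 ± 0.33 at 24 h (adjusted p = 2.32e-13) and 2.54 ± 0.33 at 72 h (adjusted p = 9.69e-09). The 72 h change was 1.76 without course 1, still past the threshold. In the cocktails it rose from 2.82 CPM to 8.32 CPM at 2 h, 27.3 CPM at 24 h and 47.6 CPM at 72 h, by 1.41 ± 0.14, 3.07 ± 0.14 and 3.85 ± 0.14 (adjusted p = 3.92e-36 at 72 h).

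Its 5 highest group means were all at 12 h, from 84.3 ± 5.67 CPM without cytokines to 98.4 ± 2.17 CPM with the IL21 cocktail (SD, n = 3), and the 4 with cytokines overlapped with their neighbours in that order. Set against the no-cytokine libraries, those with IL6 and TGFb were above at 4 h (32.5, 38 and 35.4 against 22.5, 27.8 and 28.2 CPM) and at 6 h. They were below at 24 h (22.8, 30.6 and 30.4 against 34.3, 52.9 and 46 CPM), and overlapped at the other times. At 72 h they read 49.8, 56 and 55.6 CPM against 53.3 (course 1), 11.1 and 11.2 CPM, a log2 difference of 1.48. Only the course 1 library overlapped there.

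Ptger4, the EP4 receptor, also rose from 0 h in all 6 tests, and its early peak was higher with cytokines. Its libraries read 47.2, 45.2 and 45.3 CPM at 0 h, and at 1 h they read 81.6, 93.5 and 97.9 CPM without cytokines and 252, 276 and 255 CPM with IL6 and TGFb. The cytokine libraries were above with no overlap at 0.5, 1, 2 and 12 h, and below at 48 h (77.3, 69.1 and 76.6 against 168, 129 and 143 CPM) and at 72 h. Without cytokines the change from 0 h was 1.11 ± 0.17 at 2 h (adjusted p = 1e-07), 0.64 ± 0.17 at 24 h and 1.75 ± 0.17 at 72 h (adjusted p = 1.84e-12), or 1.34 at 72 h without the course 1 library. In the cocktails it was 1.69 ± 0.11 at 2 h (adjusted p = 1.31e-21), 0.80 ± 0.11 at 24 h and 1.24 ± 0.11 at 72 h, with means of 138, 74.1 and 102 CPM against 42.2 CPM at 0 h. Between peaks it returned to 41.1 CPM at 6 h in the cocktail with both IL1b and IL21, the lowest group mean. The 4 highest group means were the 4 cytokine cultures at 1 h, 216 to 261 CPM, each overlapping with its neighbour.

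Over the 5 receptors, the test of no cytokines against 0 h called 3 at 2 h (2 higher), 4 at 24 h (3 higher) and 3 at 72 h (3 higher). These shares stand beside 69.1%, 72.6% and 65.3% of all genes called. The cocktails against 0 h called 3 at 2 h (2 higher), 5 at 24 h (4 higher) and 5 at 72 h (4 higher), beside 76.9%, 82.9% and 85% of all genes. Most genes changed on stimulation, so the counts say little about the receptors as a group, and the sizes above carry the description.

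**Figure D2:**
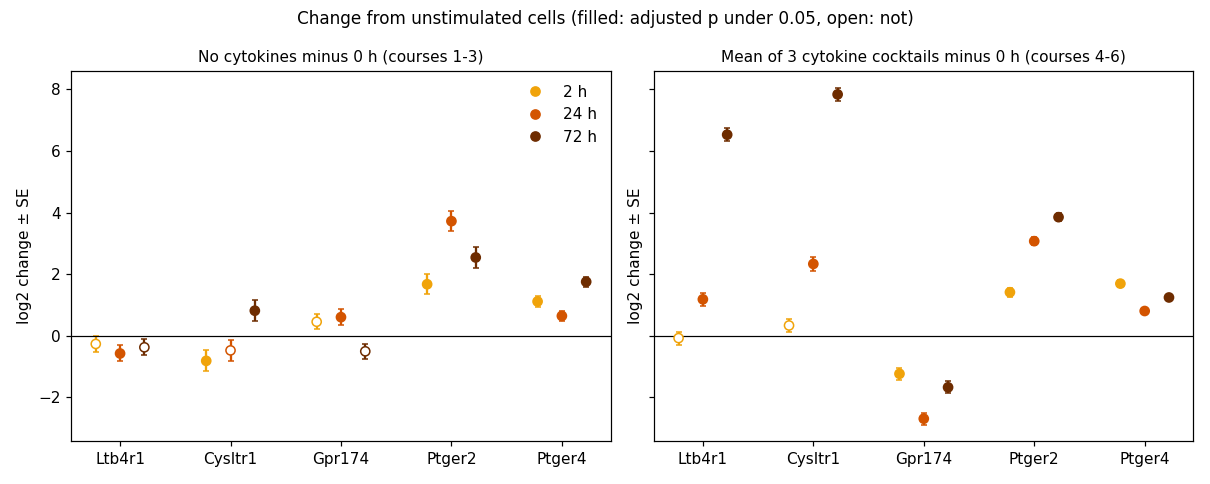
The log2 change from 0 h (y axis, with SE bars) of the 5 receptors at 2, 24 and 72 h, without cytokines on the left and as the mean of the 3 cocktails on the right. Filled points passed the test and open points did not; the cocktail changes at 72 h range from -1.68 for Gpr174 to 7.84 for Cysltr1.

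The 3 cocktails were compared with each other. Cultures with IL6 and TGFb alone were grown only in the other courses, which were fitted apart. What IL1b or IL21 adds to IL6 and TGFb alone was therefore not tested. From 4 to 12 h, 0 of the 5 receptors passed limma's test in any pair of cocktails, where 0.175% of genes were called for IL1b against IL21, 0.00673% for IL1b added to the IL21 cocktail and 0.135% for IL21 added to the IL1b cocktail. The largest of the 15 log2 differences was -0.25 ± 0.13, for Gpr174 with IL21 added. By single times, Gpr174 was higher with IL1b than with IL21, with no overlap, at 4 h (0.45) and 6 h (0.2), and overlapped at 12 h (0.09). With IL21 added it was lower with no overlap at 4 h (-0.44), and overlapped at 6 and 12 h. A limma fit of only the compared groups called Gpr174 in these 2 pairs (adjusted p = 0.0017 and 0.0462). From 24 to 72 h the cocktail with IL1b differed from that with IL21 in 2 of the 5, beside 11% of all genes. Adding IL1b to the IL21 cocktail changed the same 2, beside 6.66%.

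Ptger4 was the higher of the pair with IL1b. It read 76.3, 74.1 and 84.9 CPM at 24 h and 98, 115 and 125 CPM at 72 h with IL1b, against 66.8, 67.3 and 63.1 CPM and 69.8, 86.9 and 90.2 CPM with IL21. These groups did not overlap at 24 and 72 h, and overlapped at 48 h. Over the window the log2 difference was 0.36 ± 0.08 (adjusted p = 0.00103), and adding IL1b to the IL21 cocktail gave 0.33 ± 0.08 (adjusted p = 0.0045). Without course 6 the first was 0.28 (adjusted p = 0.211), and without course 5 or course 6 the second was 0.30 (adjusted p = 0.125) or 0.31 (adjusted p = 0.179).

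Gpr174 was lower with IL1b. At 24 h it read 11.2, 10.8 and 12.9 CPM with IL1b against 13.2, 17.8 and 14.6 CPM with IL21, with no overlap, and at 48 h and 72 h the groups overlapped, as course 4 was the lowest in both. The window difference was -0.43 ± 0.13 (adjusted p = 0.0243), and adding IL1b gave -0.49 ± 0.13 (adjusted p = 0.012). Without course 5 the first was -0.25 (adjusted p = 0.328) and without course 6 it was -0.57 (adjusted p = 0.152), and the second was -0.50 (adjusted p = 0.0564) and -0.49 (adjusted p = 0.288). Over all fits run the first was called in 9 of 13 and the second in 10 of 13. In the earlier window the difference between IL1b and IL21 had the other sign, 0.24 ± 0.13, and did not pass. From the earlier to the later window it changed by -0.67 ± 0.19 for Gpr174 (adjusted p = 0.0261), the 1 receptor of 5 called there beside 3.51% of genes. Without course 5 or course 6 that value was -0.50 (adjusted p = 0.309) or -0.80 (adjusted p = 0.341).

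Cysltr1 did not pass the test between IL1b and IL21: 3.72, 3.69 and 3.63 CPM against 2.31, 2.25 and 2.86 CPM with IL21 at 24 h, and a window difference of 0.42 ± 0.15 (adjusted p = 0.0655). Cocktail libraries of the same course deviated together, and with course as a block at each time the same difference had an adjusted p of 0.0223, and that for added IL1b 0.0389. Over all fits run, IL1b against IL21 was called for Cysltr1 in 7 of 13 (adjusted p from 0.00829 to 0.571) and added IL1b in 3 of 13 (0.0178 to 0.572), with log2 differences of 0.24 to 0.55 and 0.29 to 0.49. The lowest difference was without course 4 in both. With that block the change between windows was called for 3 receptors, Gpr174, Ptger4 (0.34, adjusted p = 0.00063) and Cysltr1 (0.56, adjusted p = 0.0485). The blocked fit called 3413 genes for IL1b against IL21 from 24 to 72 h, against 1639 without the block, 2443 against 989 for added IL1b and 1983 against 521 for the change between windows. Of the mast cell and eosinophil markers, Ccr3 was at 5.21 to 9.94 CPM with IL1b and 1.4 to 3.62 CPM with IL21 at 72 h, while the other 7 had means under 1 CPM. Summed B cell markers (7 genes) were 7.28 to 17.6 CPM with IL1b and 3.52 to 8.07 CPM with IL21 at 72 h, mostly from Ebf1 (means of 10.8 and 3.95 CPM), with the other 6 at means of 1 CPM or less and Cd79a at 0.753 and 1 CPM. Summed T cell markers were 2590 to 2610 CPM with IL1b and 2750 to 3130 CPM with IL21. Their part in the differences between cocktails was not tested.

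Ltb4r1 and Ptger2 did not pass in this window, with differences of 0.22 ± 0.15 (adjusted p = 0.383) and 0.07 ± 0.10 (adjusted p = 0.744). Adding IL21 to the IL1b cocktail called 0 of the 5, with differences from -0.08 to 0.02, beside 0% of all genes by limma, edgeR and DESeq2, and 248 genes had an unadjusted limma p under 0.05.

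**Figure D3:**
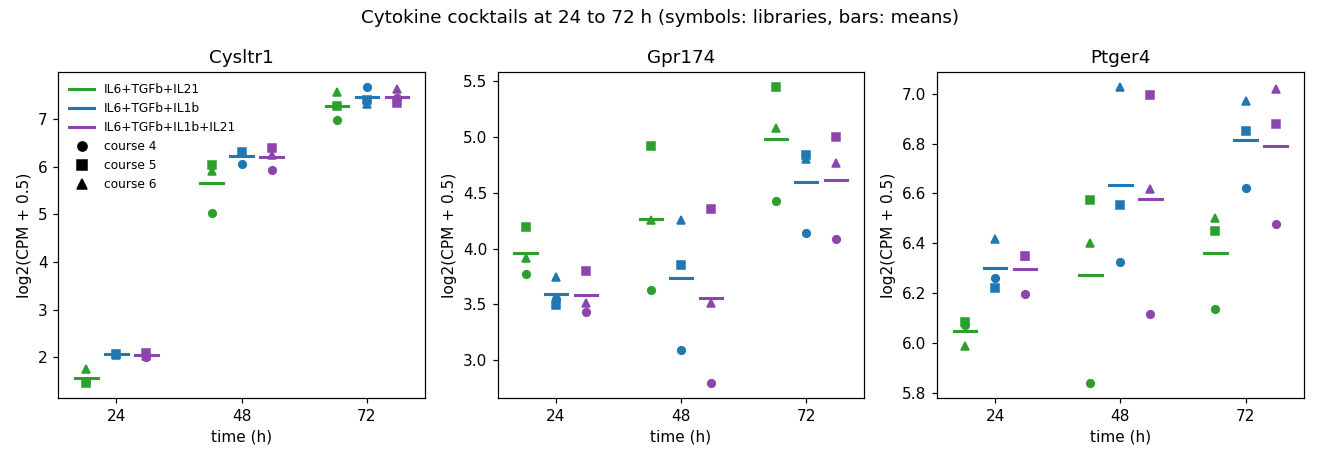
Levels of Cysltr1, Gpr174 and Ptger4 as log2(CPM + 0.5) (y axis) at 24, 48 and 72 h in the 3 cocktails, with 1 symbol per library, shaped by course, and bars at the means. Ptger4 is higher and Gpr174 lower in both cocktails with IL1b, by 0.36 and 0.43 for IL1b against IL21 over the window, and the courses spread widely at 48 h.

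The genes most like each receptor over the 47 group means, by Pearson's r on log2(CPM + 0.5) among 13043 genes, are given without a test, since groups of one time or culture are not independent. Ltb4r1 was closest to Klre1 (0.989), Casr (0.988) and Cysltr1 (0.987). Cysltr1 was closest to Gpr15 (0.992), Ltb4r1 (0.987) and Sema6b (0.986). Gpr15 is a chemoattractant receptor of lymphocytes, and Casr is the calcium-sensing receptor. For Gpr174 they were F13a1 (0.920), Adamts6 (0.866) and Nek9 (0.863, or 0.708 without TMM scaling), for Ptger2 Mif (0.979), Spcs1 (0.975) and Bbs12 (0.971), and for Ptger4 Iqcb1 (0.904), Retsat (0.863) and Hemgn (0.860). Among the 5, Ptger2 with Ptger4 gave -0.648 and Gpr174 with Cysltr1 -0.693.

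The other receptors of the family were read from lists of 11 eicosanoid receptors and 22 receptors for other lipids. Of the first, 6 passed the filter in courses 1 to 3, and Ltb4r2, the second leukotriene B4 receptor, which lies next to Ltb4r1 in the genome so that reads could be assigned to either, did not (at most 0.741 CPM, with IL6 and TGFb at 72 h). At 72 h the contrast of IL6 and TGFb with no cytokines called 1 of the 6 higher and 1 lower (median 0.02), beside 46.2% of all genes (median -0.05). Cysltr2, the second cysteinyl leukotriene receptor, was higher, 9.28 against 0.289 CPM, a log2 difference of 3.69 ± 0.20 (adjusted p = 1.19e-19), and in the cocktails it was above 0 h by 3.12 ± 0.19. Ptger3, the EP3 receptor, was lower, 0.0593 against 1.37 CPM (-1.73 ± 0.20, adjusted p = 1.36e-09). Ptger1, the EP1 receptor, stood at 101 against 113 CPM and did not pass.

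Of the receptors for other lipids, 15 passed the filter, and at 72 h 6 were higher and 2 lower with IL6 and TGFb (median 0.35). This is 53.3% called, beside 46.2% of all genes. S1pr3, for sphingosine 1-phosphate, stood at 7.28 against 0.257 CPM (3.36 ± 0.22), and Gpr183, the oxysterol receptor EBI2, at 59.4 against 37.2 CPM (1.14 ± 0.35, adjusted p = 0.00693). Gpr34, which like Gpr174 binds lysophosphatidylserine, was lower, 0.485 against 13.7 CPM (-3.73 ± 0.30, adjusted p = 2.62e-14). P2ry10, a further receptor for that lipid, was 78.2 against 78.3 CPM at 72 h, but at 24 h, when Gpr174 was low as well, it read 5.26 against 29.3 CPM (-2.38 ± 0.26, adjusted p = 4.15e-10), and Gpr183 14.7 against 75.3 CPM (-2.32 ± 0.35). In the same contrast at 24 h, 3 eicosanoid and 6 other lipid receptors were called, beside 26% of all genes, and at 2 h 2 and 4, beside 12.7%. Over all 6 lists of other pathway genes (73 tested), 22 were called at 2 h, 24 at 24 h and 38 at 72 h with all courses. These are 30.1%, 32.9% and 52.1%, beside 12.7%, 26% and 46.2% of all genes. Without course 2 the counts were 10, 11 and 24, where 671, 2331 and 3953 of all genes were called. Without course 3 they were 14, 15 and 25, where 1030, 2371 and 4568 were. The no-cytokine values at 72 h include the library of course 1. Without that library, 8229 of all genes were called at 72 h, against 6792 with it. S1pr1, which guides exit from lymph nodes, fell from 485 to 53.7 CPM in the cocktails at 72 h (-3.21 ± 0.22), and Gpr55 rose from 1.01 to 20.2 CPM (3.70 ± 0.22).

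**Figure D4:**
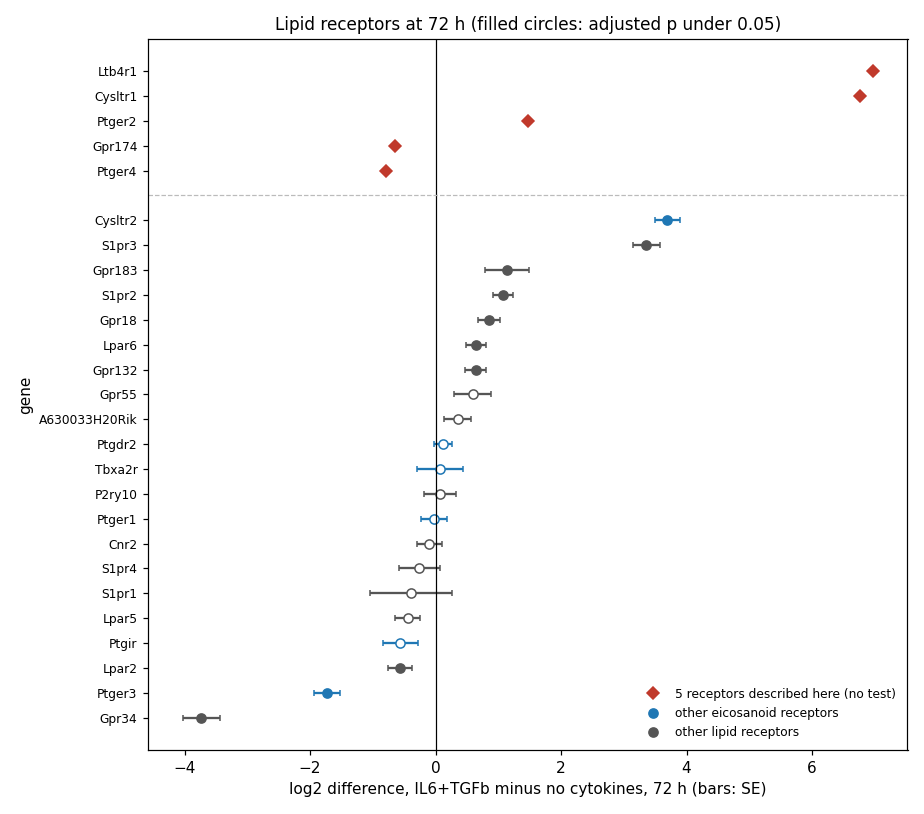
The log2 difference between IL6 and TGFb and no cytokines at 72 h (x axis, SE bars) for each lipid receptor tested, with the 5 receptors described here as diamonds above the dashed line, without a test. Cysltr2 at 3.69 and S1pr3 at 3.36 are the highest of the others and Gpr34 at -3.73 the lowest.

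Genes for the enzymes that make and remove these lipids were read from lists of their own. Of 24 genes for eicosanoid synthesis and removal, 14 passed the filter in courses 1 to 3, and 3 were higher and 3 lower with IL6 and TGFb at 72 h, which is 42.9% called beside 46.2% of all genes. Alox5, the lipoxygenase that starts leukotriene synthesis, reached at most 0.7 CPM in a group mean and Ltc4s, which makes leukotriene C4, 0.171 CPM. Lta4h, which makes leukotriene B4, was at 144 CPM with IL6 and TGFb and 231 CPM without (-0.54 ± 0.19, adjusted p = 0.0211). Ggt5, which turns leukotriene C4 into D4, the preferred ligand of Cysltr1, fell from 82.5 to 2.23 CPM in the cocktails at 72 h (-4.99 ± 0.16). Abcc1, an exporter of leukotriene C4, was higher with IL6 and TGFb (115 against 77.7 CPM, 0.66 ± 0.17) and with IL1b over IL21 (132 against 94.9 CPM, 0.44 ± 0.06, adjusted p = 3.48e-07). Among 11 enzymes for lysophospholipids and oxysterols, 7 passed, and Enpp2, which makes lysophosphatidic acid, rose from 0.184 to 40.2 CPM in the cocktails (5.47 ± 0.21) and was higher with IL1b than with IL21, 20.6 against 3.54 CPM (1.49 ± 0.15, adjusted p = 9.84e-12).

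Of 20 genes for G proteins and cyclic AMP, the relay behind the receptors, the cocktails at 72 h had 11 higher and 7 lower than 0 h, 90% called beside 85% of all genes. Crem, a cyclic AMP response modulator, rose from 10.6 to 613 CPM at 2 h (5.79 ± 0.21) and stood at 121 CPM at 72 h, while Adcy7, an adenylyl cyclase, fell from 591 to 57.5 CPM at 2 h (-3.36 ± 0.07). With IL6 and TGFb at 72 h, Crem was at 85 against 19 CPM (2.18 ± 0.25) and Pde4d, a phosphodiesterase that removes cyclic AMP, at 110 against 47.5 CPM (1.22 ± 0.23). Of 12 genes that brake G protein receptors, 11 passed the filter and 3 rose and 8 fell in the cocktails at 72 h, again beside 85% of all genes called. Rgs1 rose from 14.1 to 344 CPM (4.57 ± 0.14), and with IL6 and TGFb Arrb1, an arrestin, was at 355 against 68.4 CPM (2.51 ± 0.22). Between IL1b and IL21 from 24 to 72 h, 0 of these 11 were higher and 4 lower, among them Rgs16 (25.8 against 47.6 CPM, -0.87 ± 0.15) and Rgs10 (48.1 against 77.3 CPM, -0.70 ± 0.08). Over all 6 lists, 19 of 72 genes tested were called there (26.4%), beside 11% of all genes. With course as a block at each time 31 were called, where 3413 of all 14859 genes were, and without course 6 it was 5, where 456 were.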

How the data were processed

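The authors deposited a table of CPM (read counts scaled to a fixed total) for 46517 gene symbols and 141 libraries. Each column has the same total (1e+06), and dividing by the value of 1 read gave whole reads for 100% of values (tolerance 0.001). The submitters' processing notes name TopHat and HTSeq, and the builds mm9 and GRCh37, with no versions or roles. Whether counting used strand is not stated in the labels, and 0 columns were left unused.

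Groups and course numbers come from the labels. CPM were scaled by TMM factors over all 141 libraries (edgeR 4.0.16, R 4.3.3). Courses 1 to 3 and courses 4 to 6 were fitted apart with limma 3.58.1 (trend) on log2(CPM + 0.5), over the 14695 and 14859 genes that reached 1 CPM in 3 or more libraries of the set. Calls are at a Benjamini-Hochberg adjusted p under 0.05 over all genes of a set, and the tests are two-sided. The fit was tested on simulated reads for courses 4 to 6. These were drawn independently for each library, so libraries of a course deviating together were not simulated. A difference over a window is the mean over its times (4, 6 and 12 h, or 24, 48 and 72 h).

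The 5 receptors and all gene lists were chosen with earlier results of these data known. IL6 and TGFb against no cytokines is a description for the 5. It shares the no-cytokine libraries with the test of no cytokines against 0 h. From each list, up to 3 genes per comparison were named, those called with the largest change and at least 5 CPM in the higher group, plus any receptor tested. Alox5, Ltc4s and Ltb4r2, which did not pass the filter, were chosen after their values were seen. A further Th17 marker is not reported here and is left out of the summed markers. Promoters are from RefSeq (GRCm38.p6), read with Python 3.11.15.

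Course numbers were checked as pairs by correlating deviations from group means. Every course was over 0.1 for all cocktail comparisons (lowest 0.218), for IL6 and TGFb against no cytokines at 2 h (lowest 0.405) and for the cocktails against 0 h at 2 h (lowest 0.169), and not for the others. Libraries of a group differed by 2.96 times the sampling noise or more (median 11.9), so none was counted as a duplicate. Alternatives were no TMM scaling, no filter, pseudocounts of 0.1 and 1, a course block, single libraries or courses left out, fits of the compared groups only, and edgeR or DESeq2 (1.42.0) on the recovered reads.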

Additional observations from a re-analysis of the deposited data

Results flagged for a closer look

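For Gpr174, the effect of IL1b against IL21 differed between the window of 24 to 72 h and that of 4 to 12 h, by -0.67 on the log2 scale in the test of that difference. For Ptger2, every library with IL6 and TGFb was above every no-cytokine library at 4 h (log2 difference 0.43) and below at 24 h (-0.65). Ptger4 was likewise above at 1 h (1.52) and below at 48 h (-0.97). The difference between times was not tested for these receptors. Dixon's test for a single outlying value was not applied, since every group has 3 libraries.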

How the results depend on the processing

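Of the values of single receptors under the alternatives, 683 kept their direction and side of the threshold. With the same direction, 35 lost the call and 20 gained it. A further 31 changed direction without a call in either fit, and 1 reversed, meaning that it changed direction and was called in the main fit or the alternative. The reversed value was Ltb4r1 without cytokines at 24 h, which ranged from -0.91 to 0.05 when 1 course was left out, the highest without course 2. The rises of Ptger2 and Ptger4 from 0 h were called under every alternative run, as were the cocktail changes from 0 h that were called for any receptor. The block at each time and the leaving out of single libraries were chosen after seeing the data.

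Without the filter on low values the receptors called were 2 of 5 for no cytokines at 24 h, 1 for IL1b against IL21 late (24 to 72 h) and 0 for the change between windows, and 8 genes were called for IL21 added late. Fitting only the groups compared gave 1 receptor, Gpr174, for IL1b against IL21 and for IL21 added early (4 to 12 h). It gave 1 for IL1b against IL21 late, 0 for IL1b added late and 0 for the change between windows. That fit called 1216 and 2822 genes for IL6 and TGFb at 2 and 72 h, 173, 8 and 97 for the 3 early cocktail comparisons (IL1b against IL21, IL1b added, IL21 added), and 821 and 469 for the first 2 late ones.

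With course as a replicate block, 59 and 2 genes were called for IL1b against IL21 and IL1b added early, and Cysltr1 passed for IL1b against IL21 late (adjusted p = 0.0419). With the block at each time, 235, 21 and 175 were called early, 3413, 2443 and 8 late and 1983 for the change between windows, with 3 receptors there. Beside these and the calls already given for Cysltr1 and Ptger4, the block changed no call of a receptor. DESeq2 called 45 and 3 genes for the first 2 early comparisons, and a pseudocount of 0.1 gave 2 for IL1b added early.

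Leaving out 1 course gave 671 to 2318, 2331 to 3790 and 3953 to 8403 genes for IL6 and TGFb at 2, 24 and 72 h, 3 to 28, 0 to 1 and 0 to 12 for the early comparisons, 456 to 1422 and 331 to 945 for the late ones, and 96 to 578 for the change between windows. It gave 2 to 4 receptors for no cytokines at 24 h, 1 to 2 and 0 to 2 for the late comparisons, and 0 to 1 for the change between windows.

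Without TMM scaling the median of all genes moved from -0.04 to -0.22 for no cytokines and from -0.06 to -0.29 for the cocktails at 2 h. The share of called genes that were higher moved from 46.6% to 36.2% and from 45.8% to 34.6% there, from 49.5% to 38.6% for IL6 and TGFb at 72 h, from 38.5% to 55.6% and from 75% to 54.2% for IL1b against IL21 and IL21 added early, from 49% to 38.7% for IL1b added late and from 47.2% to 37% for the change between windows.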
